A study of Mus musculus with 9 samples.

Results

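The mitochondrial carrier genes of the Slc25 family were followed in mouse adult fibroblasts exposed to DPI. All protein-coding genes of the deposited count table whose GRCm38 symbol is Slc25a followed by a number were taken, which gave 47 of 53465 genes. RNA was sequenced from 9 libraries, 3 of control cells, 3 of cells given DPI for 24 h and 3 of cells given DPI for 72 h. The labels do not spell out DPI, which is read as diphenyleneiodonium, a compound that inhibits flavin enzymes, because the series concerns FMN, the flavin cofactor of respiratory complex I. The labels give no mouse strain or genotype, no dose, no vehicle for the controls and no time at which the controls were collected, so time in culture and DPI cannot be told apart in any comparison. Nothing in them states that replicates were cultured separately, and p-values therefore reflect only library-to-library spread, possibly technical. The fibroblasts were one bulk population per library, in which fewer cells of a kind and less RNA per cell cannot be told apart.

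Carriers of this family sit mostly in the inner mitochondrial membrane, which is otherwise closed to metabolites, and each moves a narrow set of substrates between the cytosol and the matrix. The ADP/ATP and phosphate carriers feed ATP synthase. Others move citrate and dicarboxylates, amino acids, nucleotides, cofactors, glutathione, iron or carnitine esters. In fibroblasts, as in most cells, they link respiration to synthesis in the cytosol.

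Total counts ranged from 15292736 to 17923656 per library. Summed fibroblast markers took 7146 to 8633 CPM (read counts scaled to library size with TMM factors) in controls, 13485 to 14146 at 24 h and 11627 to 13076 at 72 h. Of the 12 fibroblast markers listed, 9 passed the filter on low counts, and the sum does not show which of them changed. Summed markers of macrophages, endothelium, epithelium, adipocytes, muscle and neural cells stayed at or under 6.67 CPM per list in every library. At 0 throughout were 4 of 6 adipocyte, 2 of 6 muscle and 2 of 5 neural markers. Only 1 of 6 macrophage markers, 1 of 6 epithelial and 0 of 5 endothelial were. In the epithelial list 2 markers passed the filter on low counts, and in each of the others 1 did. The epithelial list stood at 1.35 to 2.17 CPM in control and 24 h libraries and at 6.44 to 6.67 at 72 h. The endothelial list stood at 1.71 to 1.92 CPM in controls, 3.17 to 4.10 at 24 h and 1.10 to 1.85 at 72 h. The macrophage list stood at 4.03 to 5.41 CPM in controls, 4.34 to 4.93 at 24 h and 2.37 to 3.03 at 72 h. The part of these shifts in the results was not tested. Control replicate 2 differed most from its group. Among the 39 carriers tested, its value was the highest of the 3 controls for 21 (53.8%) and the lowest for 10 (25.6%), against 40.8% and 41.4% of all genes tested.

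Of the 47 carriers, 39 passed the filter on low counts and 8 did not. Slc25a31, the ADP/ATP carrier of the germ line, had 0 counts in every library. The other 7 not tested were Slc25a2 (at most 10 counts in a library), Slc25a18 (6), Slc25a21 (4), Slc25a54 (3), Slc25a34 (2), Slc25a41 (2) and Slc25a48 (2). Their counts were too low for a test at this depth.

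Levels per length were compared as TPM, computed from counts divided by the exonic length of each gene, the union of all its annotated exons. This length may differ from that of the transcripts expressed. The carriers that serve ATP synthesis were the most abundant. Slc25a5, an ADP/ATP carrier, had 1124 ± 61.4 TPM in controls (SD, n = 3), Slc25a4, its paralog, 705 ± 45.1, and Slc25a3, the phosphate carrier, 286 ± 14.2. Their control means in CPM were closer, at 595, 534 and 510. The gaps in TPM rest mostly on their exonic lengths of 1646, 2353 and 5550 bases. Next came Slc25a39, a glutathione carrier, at 238 ± 19.5, and Slc25a24, which exchanges ATP-Mg for phosphate, at 193 ± 10.46. In TPM no neighbours among these 5 overlapped between control libraries, whereas in CPM Slc25a5, Slc25a4 and Slc25a3 did. Slc25a1 (121 ± 14.5) and Slc25a11 (112 ± 11.4), the citrate and oxoglutarate carriers, overlapped each other. Below them, Slc25a17 (63.2 TPM) overlapped both Slc25a51 (67.4) and Slc25a30 (57.5), which did not overlap each other. In all, 7 carriers exceeded 100 TPM in controls, and the lowest tested was Slc25a29 at 1.26 TPM.

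**Figure D1:**
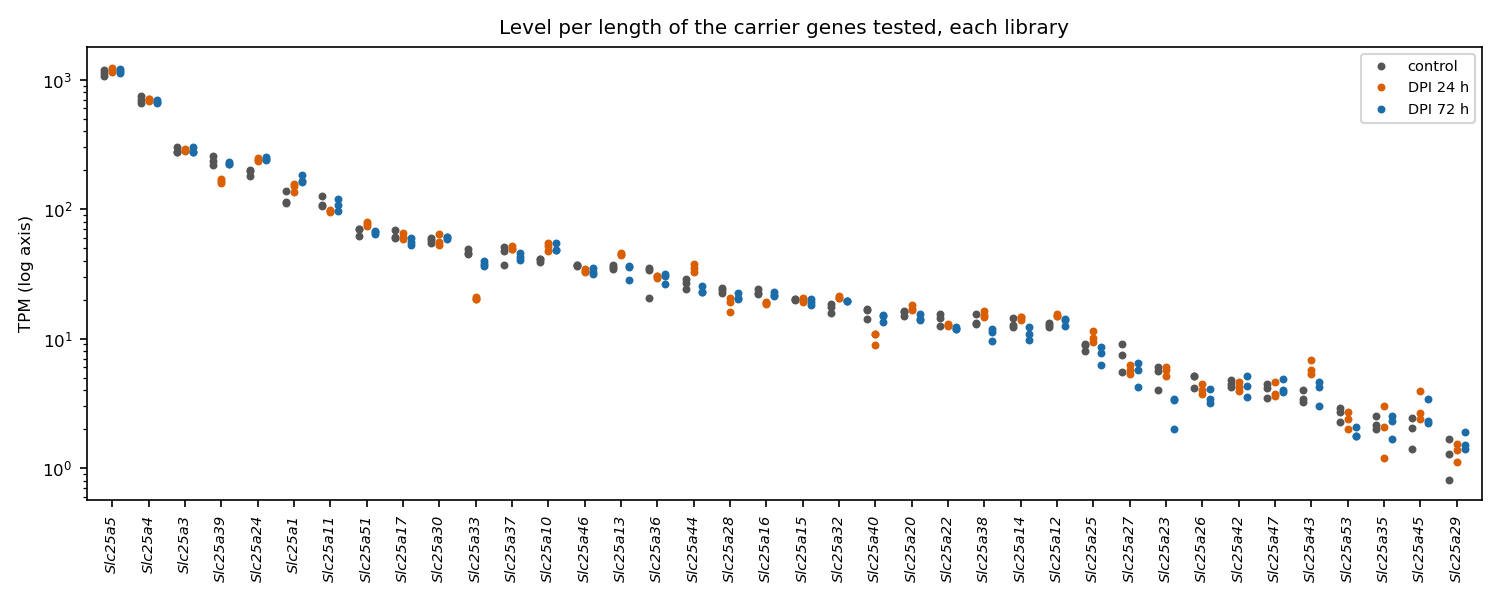
Level per length (TPM, log axis) of 38 of the 39 carrier genes tested, ordered by their mean in controls, with 1 point per library. Slc25a5, Slc25a4 and Slc25a3 lead in all 3 groups, and the 24 h points of Slc25a33 lie below its control points.

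Summed over the 47 carriers, the family took 3133, 3524 and 3073 CPM in the 3 controls, 3196, 3098 and 3160 at 24 h, and 3207, 3246 and 3183 at 72 h. Control replicate 2 was the highest of the 9 and the groups overlapped. The difference from control was -91.8 CPM at 24 h (exact two-sided permutation p = 0.9) and -31.2 CPM at 72 h (p = 1), and without control replicate 2 it was 48.4 and 109 CPM. With 3 libraries against 3 an exact permutation test cannot go below p = 0.1. Without Slc25a3, Slc25a4 and Slc25a5 the sum was 1582, 1666 and 1565 CPM in controls, 1563, 1559 and 1558 at 24 h and 1612, 1608 and 1599.8 at 72 h. The 24 h libraries lay just below all others (exact permutation p = 0.1 against each group, adjusted p = 0.15). Abundant carriers weigh most in this sum, so it does not show a lower level across the rest. The mean of Slc25a39 was 212 CPM in controls and 140 at 24 h, and that of Slc25a24 was 212 and 254. Slc25a3, Slc25a4 and Slc25a5 made up 59.6% to 62.6% of the family's TPM in every library.

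The 24 h comparison asked which carriers differed after the shorter exposure. Both glutathione carriers, Slc25a39 and Slc25a40, were lower. In other substrate groups single members were called, with Slc25a33 (pyrimidine nucleotides), Slc25a28 (iron), Slc25a22 (glutamate) and Slc25a16 (coenzyme A) lower, and Slc25a24 (ATP-Mg), Slc25a10 (dicarboxylates) and Slc25a44 (branched-chain amino acids) higher. Of 39 carriers tested, 9 changed (23.1%) by edgeR with an adjusted p below 0.05, of which 3 were higher and 6 lower. Of all 14088 genes tested, 24.7% changed (12.4% higher and 12.3% lower), so the family's share was near the background. Its median log2 change was -0.037, beside -0.0056 over all genes. Groups did not overlap for 18 carriers, 9 higher and 9 lower, against 40.5% of all genes (20.4% higher and 20.1% lower). Without control replicate 2 the count was 14, and that over all genes went from 3478 to 4419.

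**Figure D2:**
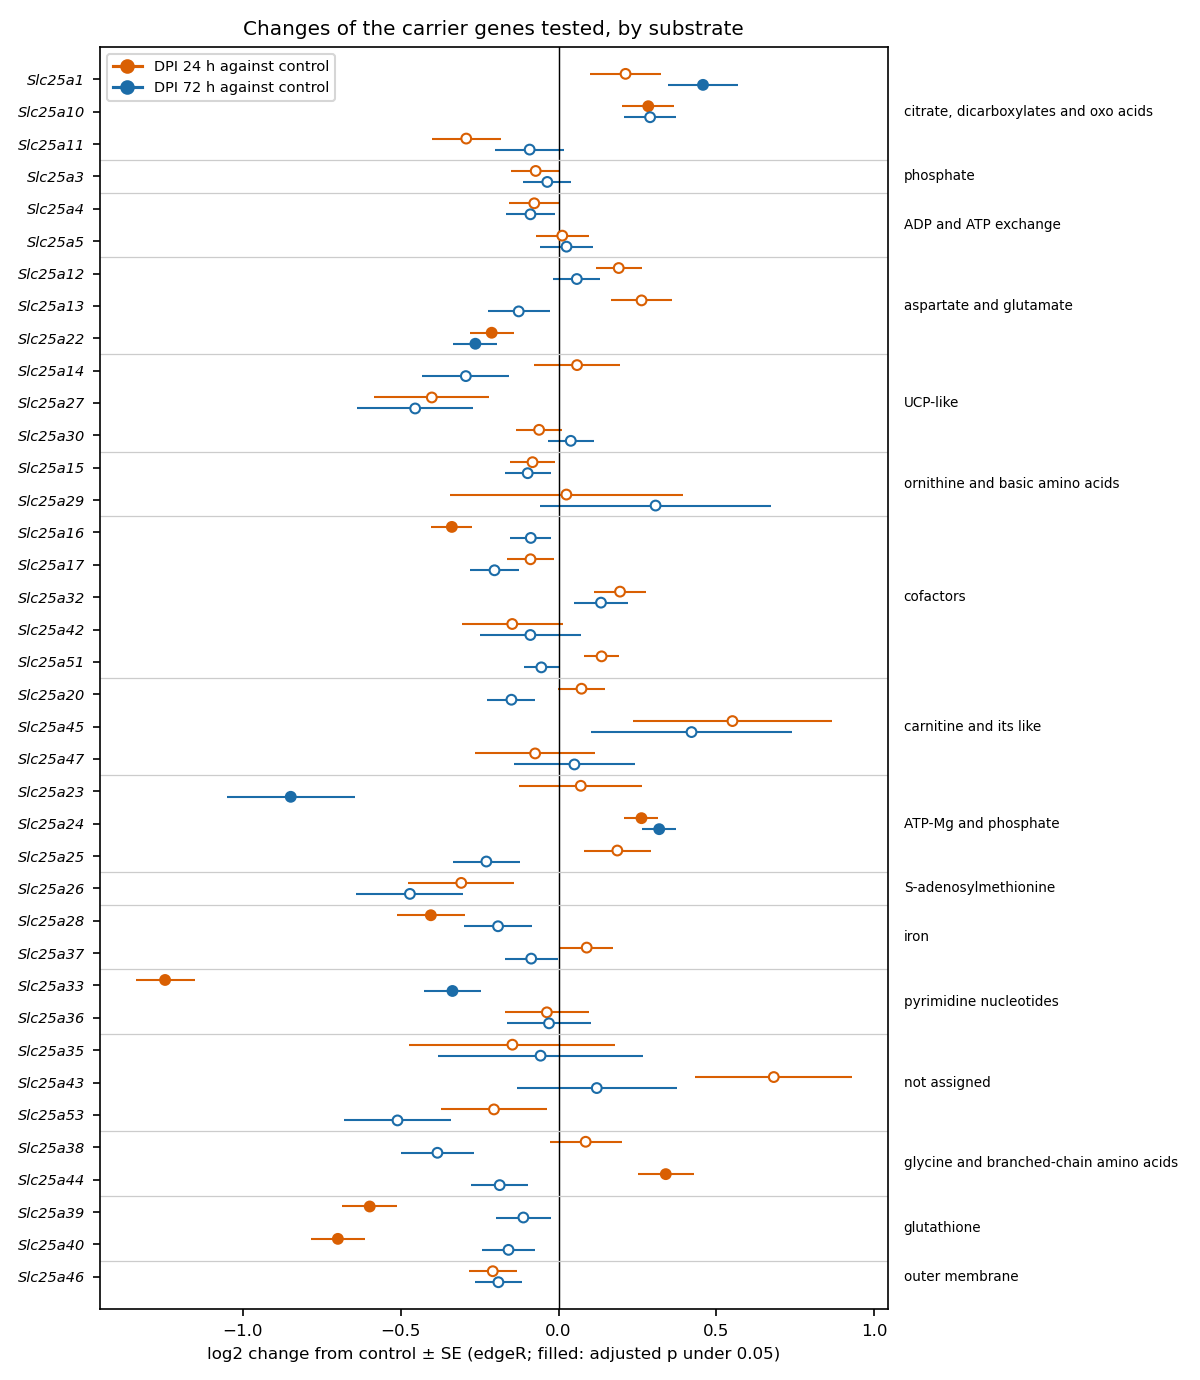
Log2 change from control ± SE (edgeR, horizontal axis) of 38 of the 39 carrier genes tested, grouped by substrate, at 24 h (orange) and 72 h (blue). Filled points passed an adjusted p of 0.05, and Slc25a33 at 24 h lies farthest from 0, at -1.25.

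Slc25a33, which carries pyrimidine nucleotides into the matrix (ENSMUSG00000028982, chromosome 4 from 149744036 to 149774277, GRCm38), had the largest fall. It stood at 27.1, 31.8 and 25.9 CPM in controls, 11.7, 11.7 and 12.3 at 24 h and 23.1, 21.9 and 22.1 at 72 h. Every treated library lay below every control, and the 72 h libraries lay between the others. The log2 change at 24 h was -1.25 ± 0.09 (SE, edgeR adjusted p = 6.10e-06), and 72 h stood 0.91 ± 0.09 above 24 h (adjusted p = 6.23e-05). The fall at 72 h, -0.34 ± 0.09 (adjusted p = 0.042), was lost in 8 of the 9 fits that left out a library, at adjusted p from 0.059 to 0.138, all but that without control replicate 3, and in DESeq2 (0.060). It was also lost with no filter (edgeR adjusted p = 0.065), the replicate block (0.086) and only the libraries compared (0.106). An antisense gene, Gm13068, covers 14.9% of its exonic length, with a mean of 0.356 CPM, and the strand setting is not given in the sources used here. Its paralog Slc25a36, the other pyrimidine carrier, had 101, 68.4 and 103 CPM in controls, 89.98, 85.5 and 90.6 at 24 h and 89.5, 82.2 and 95.7 at 72 h. Control replicate 2 was the lowest of these 9 values, and log2 changes were -0.037 and -0.030, with adjusted p = 0.87 and 0.93.

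Both carriers of glutathione, Slc25a39 and Slc25a40, which bring this thiol into the matrix, fell at 24 h and stood higher again at 72 h. Slc25a40 (ENSMUSG00000054099, chromosome 5 from 8422850 to 8454797) had 44.1, 41.0 and 42.5 CPM in controls, 28.01, 27.7 and 22.9 at 24 h and 38.5, 36.1 and 39.7 at 72 h. Slc25a39 (ENSMUSG00000018677, chromosome 11 from 102402985 to 102407946) had 190.0, 246 and 199 CPM in controls, 139.6, 144 and 136 at 24 h and 197, 198 and 192 at 72 h. For both genes the 24 h libraries lay below all 6 others. The log2 changes at 24 h were -0.70 ± 0.09 for Slc25a40 (adjusted p = 2.04e-04) and -0.60 ± 0.09 for Slc25a39 (adjusted p = 6.89e-04). Between 24 h and 72 h they differed by 0.54 ± 0.09 (adjusted p = 0.0012) and 0.49 ± 0.09 (adjusted p = 0.0026). At 72 h neither passed against control, at -0.16 ± 0.08 and -0.11 ± 0.09 (adjusted p = 0.31 and 0.51).

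Slc25a33, Slc25a40 and Slc25a39 had the smallest adjusted p of the family, and they moved in the same directions at 24 h and from 24 h to 72 h. Their promoter windows from RefSeq (GRCm38.p6), 300 bases each and mostly upstream of the RefSeq start, are shown for that reason, 5′ to 3′ on the gene's strand, with matches to the motifs searched in capitals.
Slc25a33, chr4:149774218-149774517, minus strand: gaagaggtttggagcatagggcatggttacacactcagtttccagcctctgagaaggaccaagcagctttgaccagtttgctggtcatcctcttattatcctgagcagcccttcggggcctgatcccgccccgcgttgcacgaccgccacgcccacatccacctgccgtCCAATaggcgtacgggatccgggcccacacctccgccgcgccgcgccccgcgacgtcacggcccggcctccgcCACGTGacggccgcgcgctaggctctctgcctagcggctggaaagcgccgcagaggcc
Slc25a40, chr5:8422588-8422887, plus strand: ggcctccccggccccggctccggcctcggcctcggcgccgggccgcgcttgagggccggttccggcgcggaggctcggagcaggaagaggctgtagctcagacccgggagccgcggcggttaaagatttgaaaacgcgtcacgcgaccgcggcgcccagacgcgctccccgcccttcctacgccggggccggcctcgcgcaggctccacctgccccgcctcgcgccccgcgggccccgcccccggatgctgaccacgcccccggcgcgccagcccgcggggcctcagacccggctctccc
Slc25a39, chr11:102407468-102407767, minus strand: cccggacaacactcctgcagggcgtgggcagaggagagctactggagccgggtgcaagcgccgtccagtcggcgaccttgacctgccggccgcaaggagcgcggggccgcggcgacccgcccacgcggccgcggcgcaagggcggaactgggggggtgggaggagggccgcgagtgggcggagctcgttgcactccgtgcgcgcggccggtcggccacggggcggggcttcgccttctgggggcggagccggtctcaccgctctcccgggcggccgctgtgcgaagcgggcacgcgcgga
RefSeq windows matched 36 of the 47 carriers, with 46 windows. The RefSeq start of Slc25a39 differs from that of the annotation used for the counts, and its window lies wholly within the gene's coordinates given above. The motifs searched on both strands were TGATGNAA, the core of the element bound by C/EBP and ATF factors, TGACGTCA, the CRE, CACGTG, an E-box, ACGTG, the core of the hypoxia element, which overlaps CACGTG, and CCAAT. In the Slc25a33 window CACGTG, with ACGTG inside it, and CCAAT were found, and in the Slc25a40 and Slc25a39 windows none of the motifs. TGATGNAA stood in 0 of the 46 carrier windows and in 3.97% of 32851 windows of all genes. CACGTG stood in 8 of the 46 (17.4%, against 7.15% of all windows), CCAAT in 22 (47.8% against 37.4%), ACGTG in 13 (28.3% against 19.6%) and TGACGTCA in 2 (4.35% against 1.79%). The median GC content was 59.3% in carrier windows and 52.7% in all windows.

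**Figure D3:**
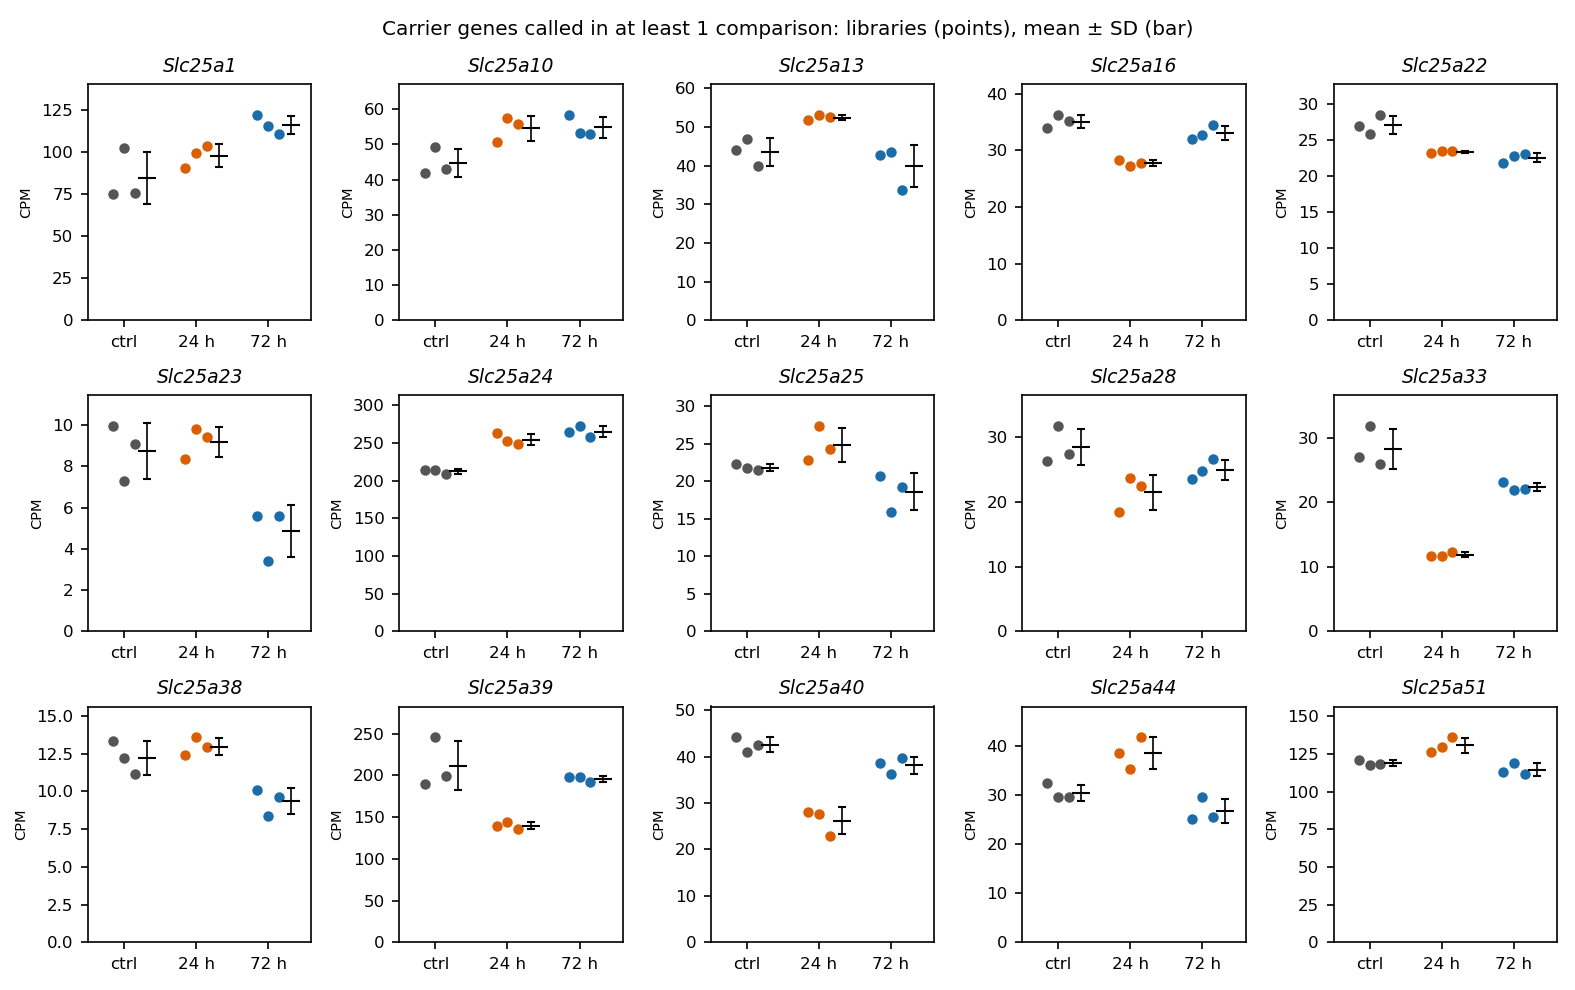
TMM-normalized CPM (vertical axes from 0) of the 15 carrier genes called in at least 1 comparison, with 1 point per library and the mean ± SD beside each group. In Slc25a33, Slc25a39 and Slc25a40 the 24 h points lie below all others, and in Slc25a23 the 72 h points do.

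Among carriers of cofactors, Slc25a16, which is linked to coenzyme A in the matrix, fell at 24 h. It had 33.9, 36.2 and 35.2 CPM in controls, 28.3, 27.2 and 27.8 at 24 h and 31.9, 32.7 and 34.4 at 72 h. The 24 h libraries lay below all others, with a log2 change of -0.34 ± 0.07 (adjusted p = 0.0035), held with each library left out. The 72 h libraries stood 0.25 ± 0.07 above those of 24 h (adjusted p = 0.020), a call lost at adjusted p from 0.054 to 0.085 without DPI 24 h replicates 2 or 3 or DPI 72 h replicates 2 or 3. This call was also lost with no filter (edgeR adjusted p = 0.095). Slc25a32, which carries folate and FAD and so bears on flavin supply, had 35.3, 36.7 and 29.3 CPM in controls, 38.3, 39.3 and 38.5 at 24 h and 36.3, 38.1 and 36.96 at 72 h. The 24 h libraries lay above the controls, with an edgeR adjusted p of 0.117, which became 0.025 when control replicate 2 was left out. Slc25a51, the NAD carrier, had 121, 117 and 118 CPM in controls, 126, 129.9 and 136 at 24 h and 113, 119 and 111 at 72 h. It was lower at 72 h than at 24 h by -0.19 ± 0.06 (adjusted p = 0.034), and this was lost in 7 of the 9 fits that left out a library, at 0.053 to 0.162, all but those without control replicates 1 and 2. The Slc25a51 call was also lost with upper-quartile scaling (edgeR adjusted p = 0.055), no filter (0.128) and the replicate block (0.074). Slc25a17, the cofactor carrier of peroxisomes, and Slc25a42, that of coenzyme A, had log2 changes of -0.089 and -0.15 at 24 h and -0.20 and -0.089 at 72 h, and neither passed.

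Of the mitoferrins, which bring iron to the matrix for heme and iron-sulfur clusters, Slc25a28 fell at 24 h and Slc25a37 did not pass. Slc25a28 had 26.4, 31.7 and 27.3 CPM in controls, 18.5, 23.6 and 22.4 at 24 h and 23.5, 24.7 and 26.6 at 72 h. Its log2 change at 24 h was -0.40 ± 0.11 (adjusted p = 0.019). With DPI 24 h replicate 1 left out, its lowest library, the adjusted p was 0.075. Slc25a37 had 76.5 to 94.4 CPM in controls, 91.0 to 94.4 at 24 h and 75.2 to 86.9 at 72 h. Its log2 changes were 0.089 ± 0.08 and -0.086 ± 0.08. The 72 h libraries of Slc25a37 lay below those of 24 h, at -0.18 ± 0.08 (edgeR adjusted p = 0.175). This difference passed with only the libraries compared (0.035) and with control replicate 2 left out (0.027).

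Among carriers of citrate and dicarboxylates, Slc25a10 rose at 24 h, Slc25a1 rose at 72 h and Slc25a11 did not pass. Slc25a10, which exchanges malate or succinate for phosphate, had 42.0, 49.4 and 43.2 CPM in controls, 50.7, 57.5 and 55.7 at 24 h and 58.3, 53.4 and 52.9 at 72 h. It rose at 24 h by 0.28 ± 0.08 (adjusted p = 0.027), while 0.29 ± 0.08 at 72 h did not pass (adjusted p = 0.054), although all treated libraries lay above all controls. The 24 h call was lost without control replicates 1 or 3 or DPI 24 h replicates 2 or 3 (adjusted p from 0.092 to 0.114), and the 72 h value passed in 6 alternatives, among them DESeq2 (0.034) and the fit without control replicate 2 (0.0041). Upper-quartile scaling (edgeR adjusted p = 0.070) and a fit of only the libraries compared (0.060) lost the 24 h call too. Slc25a1, which exports citrate for lipid synthesis, had 75.5, 103 and 75.8 CPM in controls, 90.8, 99.96 and 104 at 24 h and 122, 116 and 111 at 72 h. The 72 h libraries lay above all others, and the log2 change from control was 0.46 ± 0.11 (adjusted p = 0.028). This was 0.62 without control replicate 2, and the call was lost in 7 of the 9 fits that left out a library, at 0.051 to 0.110, all but those without control replicate 2 and DPI 24 h replicate 1. A fit of only the libraries compared lost it too (edgeR adjusted p = 0.081). At 24 h Slc25a1 was at 0.21 ± 0.11 (adjusted p = 0.20), and at 0.38 without control replicate 2 (7.01e-04). With the correction for length and GC content it also passed at 24 h (edgeR adjusted p = 0.0165). Between 24 h and 72 h Slc25a1 differed by 0.25 ± 0.11 (adjusted p = 0.15). That difference passed with no filter (edgeR adjusted p = 0.034), only the libraries compared (0.0055) and control replicate 2 left out (0.0042). Slc25a11, the oxoglutarate carrier, had -0.29 at 24 h and -0.091 at 72 h and did not pass. It shares 8.92% of its exonic length with Rnf167 on the other strand.

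The calcium-regulated carriers that exchange ATP-Mg for phosphate, and so set the nucleotide content of the matrix, did not move together, since Slc25a24 rose at both times and Slc25a23 fell at 72 h. Slc25a24 (ENSMUSG00000040322, chromosome 3 from 109123149 to 109168457) had 214, 213 and 209 CPM in controls, 263, 252 and 248 at 24 h and 264, 272 and 257 at 72 h. All treated libraries lay above all controls, and it rose by 0.26 ± 0.05 at 24 h (adjusted p = 0.0049) and 0.32 ± 0.05 at 72 h (adjusted p = 0.0035), in each of the 19 alternative fits. Slc25a23 (ENSMUSG00000046329, chromosome 17 from 57043711 to 57059863) had 9.95, 7.28 and 9.08 CPM in controls, 8.38, 9.81 and 9.42 at 24 h and 5.59, 3.40 and 5.61 at 72 h. Its 72 h libraries were the lowest, at -0.85 ± 0.20 against control (adjusted p = 0.025) and -0.92 ± 0.20 against 24 h (adjusted p = 0.0083). The call against control was lost without control replicates 1 or 3 or DPI 72 h replicate 2 (adjusted p from 0.067 to 0.073), and that against 24 h held with each library left out. With only the libraries compared, the call against control was lost as well (edgeR adjusted p = 0.081). Slc25a25 had 21.5 to 22.3 CPM in controls, 22.9 to 27.4 at 24 h and 15.9 to 20.8 at 72 h. It differed between 72 h and 24 h by -0.41 ± 0.11 (adjusted p = 0.018), but not without DPI 24 h replicates 2 or 3 or DPI 72 h replicate 2 (0.0505 to 0.083).

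Among amino acid carriers, Slc25a44, which imports branched-chain amino acids, rose at 24 h and was lower again at 72 h. It had 32.4, 29.6 and 29.5 CPM in controls, 38.6, 35.4 and 41.8 at 24 h and 25.2, 29.6 and 25.6 at 72 h. The 24 h libraries were the highest, at 0.34 ± 0.09 against control (adjusted p = 0.017), a call lost without control replicate 3 or DPI 24 h replicates 1 or 3 (0.053 to 0.091). At 72 h it was lower than at 24 h by -0.53 ± 0.09 (adjusted p = 0.0018). Slc25a38, the glycine carrier of heme synthesis, had 11.1 to 13.3 CPM in controls, 12.4 to 13.6 at 24 h and 8.40 to 10.1 at 72 h. Its 72 h libraries lay below all others, at -0.47 ± 0.12 against 24 h (adjusted p = 0.015) and -0.38 ± 0.12 against control (adjusted p = 0.071). The former was lost without DPI 24 h replicates 2 or 3 or DPI 72 h replicate 2 (0.0504 to 0.061).

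The glutamate carrier Slc25a22 had 27.0, 25.9 and 28.5 CPM in controls, 23.2, 23.5 and 23.5 at 24 h and 21.9, 22.8 and 23.1 at 72 h. All treated libraries lay below all controls, at -0.21 ± 0.07 (adjusted p = 0.047) and -0.26 ± 0.07 (adjusted p = 0.041). Both calls were lost in 8 of the 9 fits that left out a library, all but that without control replicate 2, at 0.062 to 0.130 for 24 h and 0.069 to 0.145 for 72 h, and in DESeq2 (0.146 and 0.098). They were also lost in limma voom (adjusted p = 0.062 and 0.058), with no filter, with the replicate block and with only the libraries compared. Of the aspartate/glutamate carriers of the malate-aspartate shuttle, Slc25a13 had 44.1, 47.0 and 39.8 CPM in controls, 51.7, 53.1 and 52.5 at 24 h and 42.7, 43.6 and 33.8 at 72 h. It was lower at 72 h than at 24 h by -0.39 ± 0.10 (adjusted p = 0.017), a call lost without DPI 24 h replicates 2 or 3 or DPI 72 h replicate 3 (0.054 to 0.061), and 24 h did not pass against control (0.26 ± 0.10, adjusted p = 0.073). The latter passed with control replicate 2 left out (0.022) and with DPI 72 h replicate 3 left out (0.032). It also passed with no filter (edgeR adjusted p = 0.032) and with the correction for length and GC content (0.04995). Slc25a12 had 28.5 to 30.8 CPM in controls, 33.6 to 35.0 at 24 h and 28.6 to 33.1 at 72 h, and passed in no comparison. Slc25a15, the ornithine carrier of the urea cycle, had log2 changes of -0.082 and -0.098 and Slc25a29, a carrier of basic amino acids, 0.025 and 0.31, and neither passed.

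The 3 highest carriers per length, which serve ATP synthesis, did not pass in any comparison. Slc25a5 had 580.3, 671 and 535 CPM in controls, 628, 573 and 599.6 at 24 h and 571, 643 and 603 at 72 h. Slc25a4 had 490.2, 610.2 and 501 CPM in controls, 511, 489.9 and 517 at 24 h and 506, 499 and 500.5 at 72 h. Slc25a3 had 480.2, 577 and 473 CPM in controls, 494, 475 and 487 at 24 h and 519, 496 and 479 at 72 h. In each of these 3 genes control replicate 2 was the highest of the 9 libraries and the groups overlapped. Their log2 changes at 24 h were 0.012 ± 0.08, -0.077 ± 0.08 and -0.072 ± 0.08, and at 72 h 0.025 ± 0.08, -0.089 ± 0.08 and -0.036 ± 0.08. Reads may be split uncertainly between Slc25a4 and Slc25a5, which are close in sequence.

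The remaining carriers passed in no comparison. Slc25a20, which moves acylcarnitines for fatty acid oxidation, had 23.6 to 24.8 CPM in controls, 24.6 to 27.2 at 24 h and 21.0 to 23.3 at 72 h. Its 72 h libraries lay below all others, with adjusted p = 0.28 against control and 0.061 against 24 h. The latter became 0.038 without control replicate 2 and 0.048 with only the libraries compared. Slc25a26, the S-adenosylmethionine carrier, had log2 changes of -0.31 and -0.47, Slc25a46, a protein of the outer membrane that acts in fission, -0.21 and -0.19, and Slc25a14, Slc25a27 and Slc25a30, which resemble uncoupling proteins, 0.059, -0.40 and -0.062 at 24 h and -0.29, -0.45 and 0.039 at 72 h. Slc25a43 had 1.81, 2.10 and 2.17 CPM in controls, 3.12, 2.86 and 3.78 at 24 h and 2.31, 1.73 and 2.58 at 72 h. Its 24 h libraries lay above all others, with a log2 change from control of 0.68 ± 0.25 that did not pass (adjusted p = 0.069). Slc25a35, which shares 31.3% of its exonic length with Rangrf on the other strand, Slc25a45, Slc25a47 and Slc25a53 were below 7 CPM on average in controls, at -0.15, 0.55, -0.074 and -0.20 at 24 h and -0.057, 0.42, 0.050 and -0.51 at 72 h. The 72 h libraries of Slc25a53 lay below its controls (adjusted p = 0.099).

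At 72 h against control, 5 of 39 carriers changed (12.8%), 2 higher and 3 lower, against 8.56% of all genes (4.73% higher and 3.83% lower). They were Slc25a1 and Slc25a24, and Slc25a22, Slc25a23 and Slc25a33. The median log2 change was -0.091, beside -0.0050 over all genes, and groups did not overlap for 13 carriers, 3 higher and 10 lower, against 27.1% of all genes (13.9% and 13.2%). The count was 1 if control replicate 1 or DPI 72 h replicate 2 was left out. It was 2 without control replicate 3, DPI 24 h replicates 2 or 3 or DPI 72 h replicates 1 or 3. Leaving out DPI 24 h replicate 1 gave 3. Over all genes 1206 passed in the full fit, and 1121 still did once control replicate 1 was dropped. Dropping DPI 72 h replicates 1, 2 and 3 in turn left 782, 736 and 801 genes. Dropping control replicate 3 left 915, and dropping any DPI 24 h library left 937 to 982.

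The 72 h libraries were also set against the 24 h libraries directly. Of 39 carriers, 10 differed (25.6%), 4 higher and 6 lower at 72 h, against 21.3% of all genes (10.1% and 11.2%). The 4 higher, Slc25a16, Slc25a33, Slc25a39 and Slc25a40, were also 4 of the 6 that fell at 24 h, and Slc25a44 was higher at 24 h and lower at 72 h than at 24 h. These 2 comparisons share the 24 h libraries, and how many of all genes moved in this way was not counted. The other 5, Slc25a13, Slc25a23, Slc25a25, Slc25a38 and Slc25a51, had not passed at 24 h. The median difference was -0.015, beside 0.0019 over all genes, and groups did not overlap for 19 carriers, 6 higher and 13 lower, against 46.2% of all genes (22.5% and 23.7%). The count was 5 without DPI 24 h replicate 2 or 3 and 6 without DPI 72 h replicate 2. Over all genes it went from 3001 to 2006 and 1953 without DPI 24 h replicates 2 and 3, and to 2120 without DPI 72 h replicate 2.

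Carriers that share a substrate were also compared as the share of one in the length-corrected sum of the pair, for 5 pairs in 3 comparisons. Slc25a33 made up 57.6%, 70.3% and 56.0% of the pyrimidine pair with Slc25a36 in controls, 39.9%, 41.0% and 40.8% at 24 h and 56.8%, 57.6% and 54.0% at 72 h. The share at 24 h was lower by 20.7 percentage points, with no overlap (exact two-sided permutation p = 0.1, the smallest this design allows, adjusted p = 0.25 over 15 comparisons). With counts not divided by length it was lower by 12.4 points, and the difference between 72 h and 24 h was 8.29 in place of 15.6 points. Slc25a37 made up 65.4% ± 4.66 of the mitoferrin pair in controls, 72.9% ± 2.36 at 24 h and 67.1% ± 0.568 at 72 h (SD, n = 3), and the 24 h libraries lay above all others (exact permutation p = 0.1 against each group). Slc25a13 made up 73.8% ± 0.845 of the aspartate/glutamate pair in controls and 71.2% ± 1.43 at 72 h (exact permutation p = 0.1). Slc25a40 stayed between 5.20% and 7.09% of the glutathione pair and Slc25a5 between 60.4% and 64.8% of the ADP/ATP pair, and their groups overlapped in all 3 comparisons. The size of a share depends on the exonic lengths, such as 8386 bases for Slc25a40 and 2756 for Slc25a39. Not divided by length, the control means of Slc25a40 and Slc25a39 were 42.6 and 212 CPM.

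**Figure D4:**
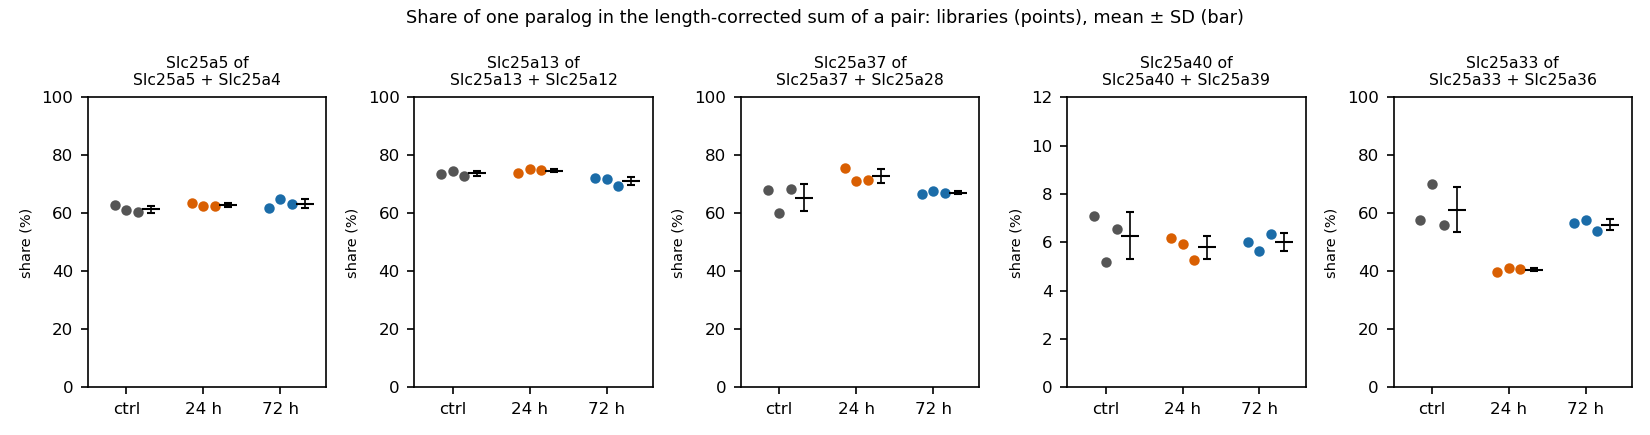
Share (%) of one paralog in the length-corrected sum of a pair, for 5 pairs, with 1 point per library and the mean ± SD beside each group. Vertical axes start at 0 and the glutathione pair has its own scale. The share of Slc25a33 lies at 39.9% to 41.0% at 24 h and at 54.0% to 70.3% in the other groups.

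Of other genes of mitochondrial transport, 36 were measured and tested. At 24 h 16 changed (44.4%), 5 higher and 11 lower, against 24.7% of all genes. The list was chosen with earlier results of these data known, so its shares are only a description. Ghitm, an inner membrane protein, had 365, 409.9 and 383 CPM in controls, 204, 186 and 192 at 24 h and 301, 293 and 294 at 72 h. Its log2 change at 24 h was -0.99 ± 0.06 (adjusted p = 1.88e-06), and it stayed lower at 72 h (-0.38 ± 0.06, adjusted p = 0.0028). Mcu, the pore of the calcium uniporter, and Mcub, its inhibitory subunit, fell by 0.32 and 0.36, and Slc30a9, a zinc transporter, by 0.33. Slc8b1, which exchanges sodium for calcium, rose by 0.48, a call lost without control replicate 1 (adjusted p = 0.054) or DPI 24 h replicate 3 (0.080). Cpt1a, which makes acylcarnitines at the outer membrane, rose by 0.79, while Cpt2, which remakes acyl-coenzyme A in the matrix, fell by 0.35. Between 24 h and 72 h 15 of the 36 differed (41.7%, against 21.3% of all genes), and at 72 h 2 differed from control (5.56%, against 8.56% of all genes), Ghitm and Sfxn1, an importer of serine. Abcb8, an ATP-binding cassette protein of the inner membrane, passed in the comparison of 72 h with 24 h, at -0.45 (adjusted p = 0.0024). The 24 h count was 9 without DPI 24 h replicate 3, and the count between 24 h and 72 h was 9 without that library or DPI 72 h replicate 1. The 72 h count was 4 without control replicate 2. It was 1 without control replicate 1, DPI 24 h replicates 1, 2 or 3 or DPI 72 h replicates 2 or 3. Over all genes, dropping DPI 24 h replicate 3 took the 24 h count from 3478 to 2351. The all-gene count between 24 h and 72 h fell from 3001 to 1953 with that library dropped, and to 2168 with DPI 72 h replicate 1 dropped. Of 5 carrier genes with other symbols (Ucp1, Ucp2, Ucp3, Mtch1 and Mtch2), 3 were tested and 0 passed in any comparison.

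By position, 4 pairs of carriers lay within 100000 bases of each other. Slc25a24 lies 6461 bases from Slc25a54 on chromosome 3 and Slc25a23 lies 2056 bases from Slc25a41 on chromosome 17. In both pairs the neighbour had at most 3 counts in a library, too few for a comparison with Slc25a24 and Slc25a23. Slc25a5 and Slc25a43 lie 18448 bases apart on chromosome X, and Slc25a29 and Slc25a47 lie 162 bases apart on chromosome 12, and none of these 4 passed in any comparison.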

How the data were processed

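Total RNA was sequenced on a HiSeq instrument after Illumina library preparation, per the labels' protocols. Per the submitters' processing notes, Trim Galore, cutadapt, STAR, RSEM, limma, edgeR and the build GRCm38 were used, without versions, roles or order. Annotation release and strand setting: not given in the sources used here. The authors deposited 2 tables of whole-number counts per Ensembl gene. The one named normalized held 159498 values, all equal to the raw counts, so the raw counts were used. Symbols, coordinates and exonic lengths came from GENCODE M21 (GRCm38), and 105 of 53465 IDs had no symbol, with 0.0090% of counts.

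The filterByExpr filter, by group, left 14088 genes, and TMM gave factors of 0.984 to 1.02. A model of 3 group means was fitted to the 9 libraries by edgeR 4.0.16 under R 4.3.3 (glmQLFit and a two-sided glmQLFTest), with Benjamini-Hochberg adjustment over all genes tested and a threshold of 0.05. Each standard error was derived from the log2 change and its quasi-likelihood F. CPM values are TMM-normalized. Family sums and paralog shares were compared with exact permutation tests over libraries. The fit was tested on counts simulated with its own dispersion estimates and with changes larger than most of those called here. That test therefore does not cover smaller changes. Alternatives were other scalings, filters, tools (DESeq2 1.42.0, limma 3.58.1 with voom) and thresholds, only the libraries compared, a replicate block, a correction for length and GC content and each library left out. The members, substrate groups and other lists were chosen with earlier results of these data known. Carriers called in any comparison, the 5 highest per length and a fixed set were named with values, and the others by log2 change. Fixed were Slc25a1, Slc25a3, Slc25a4, Slc25a5, Slc25a12, Slc25a13, Slc25a20, Slc25a28, Slc25a32, Slc25a37, Slc25a39, Slc25a40 and Slc25a51. Of the other transport list, the 8 with the smallest adjusted p were to be named; Sfxn1 was added after its values were seen. Slc25a36, as the paralog of Slc25a33, and Slc25a43, for its size, were given with values after these were seen. Protein sequences were not used here. Of the carriers tested, 1 counts in the totals and is not reported by itself here.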

Additional observations from a re-analysis of the deposited data

Results flagged for a closer look

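For 10 carriers the 72 h libraries differed from the 24 h libraries in the direct test, so that their differences from the shared controls were unequal. With 1 control group of no stated time, DPI and time in culture cannot be told apart here. The log2 difference was 0.25 for Slc25a16, 0.91 for Slc25a33, 0.49 for Slc25a39 and 0.54 for Slc25a40, all higher at 72 h. It was -0.39 for Slc25a13, -0.92 for Slc25a23, -0.41 for Slc25a25, -0.47 for Slc25a38, -0.53 for Slc25a44 and -0.19 for Slc25a51, all lower at 72 h. Of these, Slc25a23, Slc25a33, Slc25a39, Slc25a40 and Slc25a44 passed in all 9 fits that left out a library.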

How the results depend on the processing

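Of 24 calls of named carriers, 11 held in each of 19 alternative fits, and no carrier passed in the opposite direction in any. The carriers called at 24 h against control (9) numbered 5 at adjusted p under 0.01, 3 with a log2 change of at least 0.5, and 6 to 14 with each library left out. At 72 h (5 called) the count was 1 when the 6 libraries compared were fitted alone, 1 at adjusted p under 0.01, 1 with a log2 change of at least 0.5, and 1 to 7 with each library left out. At 72 h against 24 h (10 called) it was 5 at adjusted p under 0.01, 4 with a log2 change of at least 0.5, and 5 to 15 with each library left out. With the replicate block the counts were 8, 3 and 9, and the other transport genes numbered 1 at 72 h. Same-numbered libraries of different groups had correlated deviations from -0.092 to 0.0027, so the numbers were not taken to pair them. The other transport genes at 24 h (16 called) numbered 8 at adjusted p under 0.01, 4 with a log2 change of at least 0.5, and 9 to 19 with each library left out. At 72 h (2 called) they numbered 1 with only the libraries compared, 1 at adjusted p under 0.01, 0 with a log2 change of at least 0.5 (2 in edgeR without that size), and 1 to 4 with each library left out. At 72 h against 24 h (15 called) they numbered 9 at adjusted p under 0.01, 6 with a log2 change of at least 0.5, and 9 to 17 with each library left out. The median of the family at 24 h (-0.037) was -0.080 with upper-quartile scaling, -0.0664 with library totals, 0.034 with no filter, 0.037 in DESeq2, and -0.048 to 0.0048 with each library left out. At 72 h (-0.091) it was -0.12 with upper-quartile scaling, -0.13 with library totals, and -0.14 to -0.068 with each library left out, and at 72 h against 24 h (-0.015) -0.057 to -0.011. With each library left out, the family sum differed from control by -177 to 48.4 CPM at 24 h and by -116 to 109 CPM at 72 h. The share of Slc25a37 at 72 h against control ranged from -0.99 to 3.12 percentage points, that of Slc25a40 from -0.81 to 0.14, and at 72 h against 24 h those of Slc25a5 and Slc25a40 ranged from -0.37 to 1.145 and from -0.056 to 0.41. Over all genes, the 72 h count (1206) was 774 with only the libraries compared and 1965 if control replicate 2 was left out, and the 72 h against 24 h count (3001) was 4660 and 4729. The cause of these shifts was not tested. The low counts of 8 carriers limit what depth can show.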
